A study of Mus musculus with 12 samples.

Results

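Haematopoietic stem cells from 3 mice infused with POL5551, which blocks the chemokine receptor CXCR4, were compared across genes with stem cells from 3 mice given granulocyte colony-stimulating factor (G-CSF) for 2 days. The comparison took the 6 arrays that the sample labels assign to these groups, of 12 arrays in the series, and all probes on them other than controls. After a filter on dim probes it covered 33158 genes. POL5551 was delivered by continuous infusion at 100 mg/kg per day, and cells were taken 14 days after the infusion started. G-CSF was injected at 100 ug/kg every 12 h, 4 injections in all. The mice of both groups were male, 1 mouse per array with no pooling, and the sources used here give neither strain nor age. Marrow cells were enriched for Kit and sorted as lineage-negative, Sca-1-positive, Kit-positive (LSK) cells with SLAM family markers, the usual gate for mouse stem cells. The groups differed in agent, duration, dosing and slide at once, and these cannot be told apart. Separate mice gave the 3 values of a group, so the spread is between animals.

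CXCR4 is the receptor for CXCL12, a chemokine made by marrow stromal cells, and signalling between them holds stem cells in their niches. Blocking the receptor releases stem cells into the blood. G-CSF also mobilizes stem cells, but through its receptor on myeloid cells and a JAK-STAT3 cascade, with changes to the niche that lower CXCL12 there. The comparison asks how the stem cells left in the marrow differ between a direct block of the receptor and a short course of the cytokine.

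Processed signals had a 75th percentile of 4025 to 5046 intensity units on the POL5551 arrays and 3245 to 3387 on the 2-day arrays, and 75.3% to 82.7% of probes were well above background. Levels below are the log2 signal minus the 75th percentile of the array, so 0 is that percentile, and every difference is POL5551 minus 2-day G-CSF on the log2 scale with the standard error of the fit (3 mice a group). The 2-day arrays shared 1 slide that held no other group, and the POL5551 arrays lay on 3 other slides. The sort genes Kit, Ly6a (Sca-1) and Slamf1 (CD150) were well above background on all 6 arrays, and none of them was called different.

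Probes for genes that blood cells do not use did not overlap between the groups. The median level of 1535 olfactory, vomeronasal, taste and keratin-associated probes was -5.51, -4.82 and -4.42 on the POL5551 arrays and -2.68, -2.98 and -2.85 on the 2-day arrays. The groups did not overlap, with a difference of -2.08 and a two-sided exact permutation p of 0.1, the smallest that 20 splits of 6 arrays allow. The mean of the sham arrays (-3.05 ± 1.06, SD, n = 3) and the 5-day G-CSF arrays (-3.97 ± 0.41, SD, n = 3) lay between. The single sham arrays stood at -1.825, -3.588 and -3.725, so sham mouse 1 lay above every 2-day array. These genes are called off-tissue genes here, and their level on each array moved with many of the differences below. Its part in them was not tested.

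**Figure D1:**
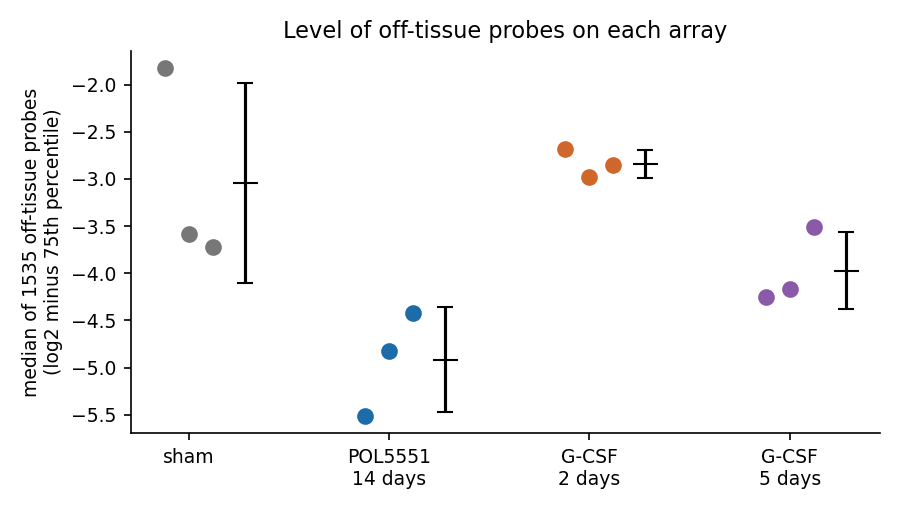
Median level of 1535 off-tissue probes on each of the 12 arrays (points, log2 minus the 75th percentile of the array), with the mean and SD of each group of 3 (bars). The 3 POL5551 arrays sit at -4.42 or below and the 3 2-day G-CSF arrays at -2.98 or above.

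Many more genes were lower than higher after POL5551. With limma and an adjusted p under 0.05, 1778 genes (5.36%) were called higher and 8681 (26.2%) lower, with a median difference over all genes of -0.70. The 3 and 3 values did not overlap for 6859 genes in the higher direction (20.7%) and 14852 in the lower (44.8%). Genes with an official symbol were less one-sided, with 1469 of 17482 (8.4%) called higher and 3300 (18.9%) lower, and a median of -0.03. Gene models, clones and unnamed transcripts gave 2.13% higher and 33.2% lower of 14521, and 560 of 1155 off-tissue genes (48.5%) were called lower. The median difference rose with brightness, from -1.47 in the dimmest of 4 equal bins of genes to 0.29 in the brightest. Among the 26259 genes well above background on all 6 arrays, 6.07% were called higher and 24.3% lower.

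The split between directions depended on the scaling. Quantile normalization called 1822 higher (5.49%) and 4091 lower (12.3%), median scaling 4055 and 4507, normexp background with quantile normalization 2589 and 4711, and the authors' own values 1867 and 4175. Quantile normalization moved the median of all genes from -0.70 to -0.25. Under both the 75th percentile and quantile scaling, 1232 genes were called higher and 4088 lower, among them 1003 and 1633 with a symbol. With the off-tissue level as a covariate limma called 0 genes, with 2948 at an unadjusted p under 0.05, and the covariate itself did not overlap between the groups. The number of calls also changed when single arrays were left out. It fell to 105 without mouse 1 of the 2-day group and to 243 without mouse 1 of the POL5551 group. In limma 11825 and 11515 genes then had an unadjusted p under 0.05, against 16323 with all arrays. The median differences were -0.65 and -0.59, so fewer calls do not by themselves mean smaller differences. Of 135 called genes named by the rule used here, 129 missed the threshold without that 2-day mouse and 124 without that POL5551 mouse.

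**Figure D2:**
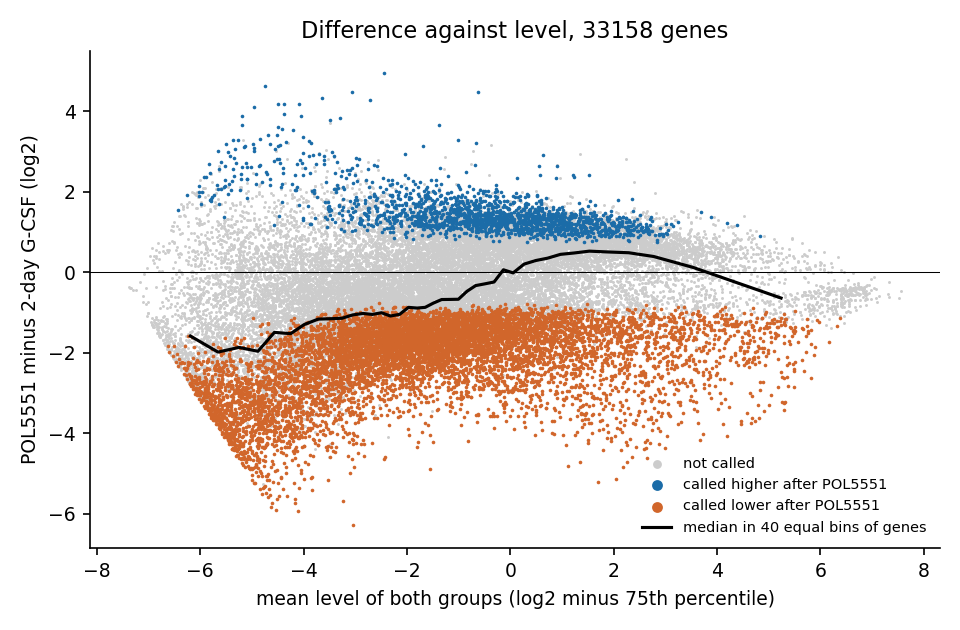
Difference between POL5551 and 2-day G-CSF (log2) against the mean level of the groups (log2 minus the 75th percentile) for 33158 genes, with the called genes in colour and the median of equal bins as a line. The line runs below 0 for dim genes, above 0 for most bright genes and below 0 again at the bright end, the pattern given as medians of -1.47 and 0.29 for the dimmest and brightest of 4 bins.

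Socs3, Gadd45g and Wfdc17, of the fixed genes, were called higher in the 2-day group, while most of the G-CSF response list was not. Socs3, which encodes the feedback inhibitor of G-CSF receptor signalling, stood at 1.21, 1.74 and 0.92 after POL5551 and at 2.60, 3.14 and 2.92 after 2 days of G-CSF. The groups did not overlap, and Socs3 fell by 1.60 ± 0.38 after POL5551 relative to G-CSF, a fold of 3.03 (adjusted p = 0.0175). Gadd45g, a growth arrest gene, stood at 0.13, 0.15 and 0.05 against 0.88, 1.33 and 1.36, a difference of -1.08 ± 0.30 (adjusted p = 0.0262). Wfdc17, which encodes a secreted protein with a whey acidic protein domain, had the widest gap of these genes. Its levels were -1.75, -1.0 and -1.67 after POL5551 and 1.09, 1.32 and 1.3 after G-CSF, a difference of -2.71 ± 0.43 (adjusted p = 0.0112). In the sham group the mean levels were -0.49 for Socs3, -1.36 for Gadd45g and -2.54 for Wfdc17, and in the 5-day G-CSF group they were 2.86, 1.08 and 1.87.

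The receptor chains Csf2rb2 and Csf2rb were called in the same direction. Csf2rb2, the mouse chain that serves interleukin-3 alone, stood at 0.10, -0.04 and 0.21 after POL5551 and 1.31, 1.17 and 0.81 after G-CSF (-1.0 ± 0.28, adjusted p = 0.0263). Csf2rb, the chain shared by interleukin-3, interleukin-5 and GM-CSF, stood at 0.93, 1.60 and 0.64 and 2.42, 2.30 and 1.93 (-1.16 ± 0.36, adjusted p = 0.0351). The 2 genes are near-identical copies, so their probes may share signal, and the mean of the 4 Csf2rb probes gave -0.77 (adjusted p = 0.0806). Selp, P-selectin, was also lower after POL5551 at 0.30, 0.12 and 0.87 against 1.18, 1.46 and 1.77 (-1.04 ± 0.33, adjusted p = 0.0356). Without mouse 1 of the 2-day group the adjusted p of these 6 genes ran from 0.0526 to 0.114, and without mouse 1 of the POL5551 group from 0.0505 to 0.111, with differences of the same sign. All 6 were also lower after quantile normalization, with differences of -1.13, -1.05, -1.11, -1.26, -1.64 and -2.57 for Gadd45g, Csf2rb2, Selp, Csf2rb, Socs3 and Wfdc17.

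Their probes lie at mm9 chr11:117827480-117827539 for Socs3, chr13:51943733-51943792 for Gadd45g, chr11:83518443-83519627 for Wfdc17, chr15:78113126-78113185 for Csf2rb2, chr15:78176856-78177118 for Csf2rb and chr1:166074040-166074099 for Selp. Of the 30 tested genes on the list of the G-CSF receptor and STAT targets, 4 (13.3%) were called lower and 1 (3.33%) higher, against 26.2% and 5.36% of all genes. The median was 0.28, and 20 of the 30 lay above 0, against 11706 of all 33158 genes. The list had a smaller share of lower calls than all genes, and than genes with a symbol (18.9% lower, 8.4% higher). Besides Socs3 and Gadd45g the lower calls were Bcl2l1, a survival gene, and Tyk2, a JAK family kinase whose probes disagreed in sign. Csf3r, the G-CSF receptor, stood at 4.71, 5.00 and 4.96 and 5.56, 5.50 and 5.34, with a difference of -0.57 (95% interval -1.35 to 0.21, adjusted p = 0.206) that turned to 0.21 after quantile normalization. Pim1, a kinase induced by STAT factors, differed by -0.46 ± 0.38 (adjusted p = 0.325). Hp, haptoglobin, was the member called higher, at 3.00, 0.98 and 2.73 against -1.12, -1.57 and 1.47, and its groups overlapped.

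The promoters of Socs3, Csf2rb2, Gadd45g and Wfdc17 are shown because STAT3 carries the G-CSF signal. That of Selp was searched too and is not printed. The 250 bases upstream of the start site were taken from RefSeq (GRCm38.p6), and the palindrome TTCNNNGAA, which reads the same on both strands, was searched in them. It was in 7.02% of 32851 promoters of that length. Of the 5 genes above with an entry, Socs3 and Csf2rb2 held 1 match each, shown in capitals, 154 and 15 bases before the start, and Gadd45g, Wfdc17 and Selp held no match in this window. A match is a string of letters and not a measured binding site.
Socs3 promoter, chr11:117969367-117969616, minus strand: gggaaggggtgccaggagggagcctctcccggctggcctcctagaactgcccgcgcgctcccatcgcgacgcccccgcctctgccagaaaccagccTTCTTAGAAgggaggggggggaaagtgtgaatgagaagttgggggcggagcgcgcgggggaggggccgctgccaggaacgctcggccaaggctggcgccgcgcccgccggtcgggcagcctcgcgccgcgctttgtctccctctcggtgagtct
Csf2rb2 promoter, chr15:78305722-78305971, minus strand: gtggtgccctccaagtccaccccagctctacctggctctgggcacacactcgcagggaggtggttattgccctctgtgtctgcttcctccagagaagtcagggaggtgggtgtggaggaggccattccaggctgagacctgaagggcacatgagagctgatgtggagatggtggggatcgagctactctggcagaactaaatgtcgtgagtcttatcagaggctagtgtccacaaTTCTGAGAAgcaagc
Gadd45g promoter, chr13:51846425-51846674, plus strand: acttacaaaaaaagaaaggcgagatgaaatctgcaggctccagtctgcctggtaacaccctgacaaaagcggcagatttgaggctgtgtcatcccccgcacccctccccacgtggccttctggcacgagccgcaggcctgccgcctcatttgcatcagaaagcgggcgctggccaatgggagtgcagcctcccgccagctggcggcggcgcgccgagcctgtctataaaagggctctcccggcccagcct
Wfdc17 promoter, chr11:83703806-83704055, plus strand: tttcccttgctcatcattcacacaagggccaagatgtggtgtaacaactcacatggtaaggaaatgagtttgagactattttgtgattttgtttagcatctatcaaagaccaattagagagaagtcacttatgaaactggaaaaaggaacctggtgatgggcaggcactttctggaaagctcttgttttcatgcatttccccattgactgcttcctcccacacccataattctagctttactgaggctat

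Cxcr4 and its ligand Cxcl12 had higher means after POL5551, and neither was called. Cxcr4, the target of POL5551, stood at 3.29, 3.24 and 3.38 after POL5551 and 1.45, 2.29 and 1.70 after G-CSF. The groups did not overlap, but the difference of 1.49 (95% interval 0.32 to 2.66) narrowly missed the threshold (adjusted p = 0.052). A second Cxcr4 probe differed by 1.79. Cxcl12, its ligand, stood at 2.70, 1.13 and 2.86 and -1.76, -1.64 and 2.08, and the groups overlapped because of mouse 3 of the 2-day group. The difference was 2.67 ± 0.95 (adjusted p = 0.0513), and 3.93 (adjusted p = 0.0375) without that mouse. A second Cxcl12 probe differed by 4.26, and the mean of both gave 3.46 (adjusted p = 0.0334), which passed the threshold. Ackr3, the second CXCL12 receptor, passed the background test on 1 POL5551 array and on 1 2-day array.

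The integrin chains Itgb2 and Itga4 were called higher after POL5551. Itgb2, the beta chain of the leukocyte integrins, stood at 3.23, 2.22 and 2.79 against 0.10, 0.76 and 0.10 (2.43 ± 0.37, a fold of 5.39, adjusted p = 0.0104). Itga4, the alpha chain of VLA-4, which binds VCAM-1 in the niche, stood at 0.44, 1.05 and 0.25 against -1.41, -1.03 and -1.86 (2.02 ± 0.40, adjusted p = 0.0129). Neither gene's groups overlapped. The 6 Itga4 probes ranged from -0.24 to 3.18, and their mean gave 1.39 (adjusted p = 0.0646).

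The list of CXCR4, adhesion and niche retention genes had 5 of 41 members (12.2%) called higher and 3 (7.32%) lower, against 5.36% and 26.2% of all genes, with a median of 0.78. Vcam1, the endothelial and stromal ligand of VLA-4, was above background on 2 arrays of each group and differed by 1.87 ± 1.11 (adjusted p = 0.185). A second Vcam1 probe differed by 3.90, and the mean of both gave 2.88 (adjusted p = 0.0393), so the call depends on the probe. Without mouse 1 of the 2-day group the adjusted p was 0.0546 for Itgb2 and 0.0594 for Itga4, and without mouse 1 of the POL5551 group 0.047 and 0.0551. The Itgb2 and Itga4 probes lie at mm9 chr10:77027978-77028037 and chr2:79173193-79173252, and that of Cxcr4 at chr1:130485079-130485138.

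More of the other chemokine and egress receptors were called lower than higher after POL5551. Of 22 tested, 10 (45.5%) were called lower and 1 (4.55%) higher, against 26.2% and 5.36% of all genes, with a median of -1.14 (-0.81 after quantile normalization, which called 4 lower). Cx3cr1, the fractalkine receptor, had a probe well above background on all 3 2-day arrays and on no POL5551 array, at least 8.63-fold lower. Its other probe was well above background on 1 of 6 arrays and differed by -0.88. A bound of this kind sets the mean of the bright group against the background floor of the dim group. Ccr9, a homing receptor of early lymphoid cells, stood at -3.17, -4.11 and -2.17 against -0.09, 0.39 and -1.30 (-2.82 ± 0.84, adjusted p = 0.0312), and at -2.37 (adjusted p = 0.0668) after quantile normalization. The member called higher was S1pr4, a sphingosine-1-phosphate receptor, at 1.68, 0.90 and 1.57 against 0.05, -0.13 and 0.17 (1.35 ± 0.38, adjusted p = 0.0258, and 0.0517 after quantile normalization).

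The 10 largest increases after POL5551 among well-measured genes are known for varied roles, from cytokine subunits to metabolic enzymes. Ebi3, the subunit shared by interleukin-27 and interleukin-35, stood at 0.57, 0.99 and 0.36 after POL5551 and -2.54, -2.76 and -2.65 after G-CSF, a fold of 9.78 (3.29 ± 0.42, adjusted p = 0.00713). The groups lay more than 2 log2 units apart on every array. Ebi3 was called with each of the 12 arrays left out in turn, and its sham and 5-day means were -0.33 and -1.74. Pf4, platelet factor 4, a chemokine that megakaryocytes release next to stem cells, stood at 0.65, 1.19 and 0.99 against -2.93, -0.92 and -2.97 (3.22 ± 0.67, adjusted p = 0.0136). Anxa2, a membrane-binding annexin, stood at -0.08, 0.26 and -0.56 against -3.38, -3.31 and -3.11 (3.14 ± 0.62, adjusted p = 0.0129). Plk2, a kinase induced by p53, stood at 3.33, 1.26 and 1.68 against -1.02, -1.25 and -0.20 (2.92 ± 0.61, adjusted p = 0.0139). None of these 4 overlapped between the groups.

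Idh1, the cytosolic isocitrate dehydrogenase, was higher by 2.66 ± 0.41 (adjusted p = 0.0107). Golph3 of the Golgi (2.64), Afp, alpha-fetoprotein (2.56), and Blvrb, a biliverdin reductase (2.47), complete the 10 largest with Ccnd1 and Dusp4, and the mean of both Golph3 probes gave 1.72. Without mouse 1 of the 2-day group the adjusted p of these 10 genes ran from 0.0427 to 0.0958, with Ebi3 the lowest. Without mouse 1 of the POL5551 group it ran from 0.033 to 0.0846. The probes of Ebi3, Pf4 and Anxa2 lie at mm9 chr17:56096309-56096368, chr5:91202275-91202334 and chr9:69339532-69339591, and those of Plk2 and Idh1 at chr13:111187720-111187900 and chr1:65206035-65206094.

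Dusp4 and Ccnd1, which the ERK kinase pathway can induce, were among the increases. Dusp4, which removes phosphate from ERK, stood at 0.10, -0.04 and -0.22 after POL5551 and -2.61, -2.39 and -2.96 after G-CSF (2.60 ± 0.59, adjusted p = 0.0158), and the mean of both its probes gave 2.05 (adjusted p = 0.0565). Ccnd1, cyclin D1, which drives entry into the cell cycle, stood at 1.02, 0.21 and 0.76 against -1.45, -2.44 and -2.15 (2.68 ± 0.72, adjusted p = 0.0231). Related genes were then looked up after those values were seen, so they are values and not support. Dusp6, a second ERK phosphatase, stood at 2.60, 2.63 and 2.02 against -0.85, 0.50 and 0.34 (2.42 ± 0.44, adjusted p = 0.0123). Etv5, an ETS factor downstream of ERK, stood at 3.35, 3.34 and 3.10 against 1.56, 1.49 and 1.25 (1.83 ± 0.38, adjusted p = 0.0139). Of 12 ERK pathway genes tested in all, Dusp4, Dusp6 and Etv5 were called higher and Spry2, a feedback inhibitor, lower (-2.16 ± 0.44, adjusted p = 0.0132). The mean of both Spry2 probes was 0.03 (adjusted p = 0.954), so that call rests on 1 probe. The others were not called: Dusp1 (1.11), Dusp2 (0.35), Dusp5 (-0.41), Spred1 (1.31), Spred2 (1.35), Spry1 (0.31), Egr1 (0.55) and Etv4 (-1.0, and -1.32 with an adjusted p of 0.0359 as the mean of its probes). Among these uncalled genes the groups did not overlap for Dusp1, Spred1 and Spred2 in the higher direction and Dusp5 and Etv4 in the lower. Over all genes those shares were 20.7% and 44.8%. Pik3r1, a regulatory subunit of PI3 kinase looked up with them, was called higher (2.35 ± 0.41, adjusted p = 0.0123). Ccnd2 and Ccnd3, the other D-type cyclins, differed by 1.49 and 0.47 (adjusted p = 0.169 and 0.397). Ccnd2 stood at 4.40, 4.06 and 3.83 against 2.55, 2.46 and 2.81 without overlap, while the Ccnd3 groups overlapped. The sham values of Ccnd2, which enter the shared estimate of spread, were 0.18, 4.106 and 4.265.

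The partners of Ebi3 were looked up in the same way. Il27, which pairs with Ebi3 in interleukin-27, differed by -0.97 ± 0.40 (adjusted p = 0.0785), and Il12a, which pairs with it in interleukin-35, by -0.26 ± 0.33 (adjusted p = 0.509). Il12b, the partner chain of interleukin-12, differed by -1.03 ± 0.49 (adjusted p = 0.113). Il27ra, the interleukin-27 receptor, was called lower at 2.42, 2.42 and 2.61 against 4.42, 3.58 and 4.37 (-1.64 ± 0.46, adjusted p = 0.0267). Il12rb1, a chain of the interleukin-12 receptor, was called higher (2.14 ± 0.75, adjusted p = 0.0491), but not after quantile normalization (0.0614).

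**Figure D3:**
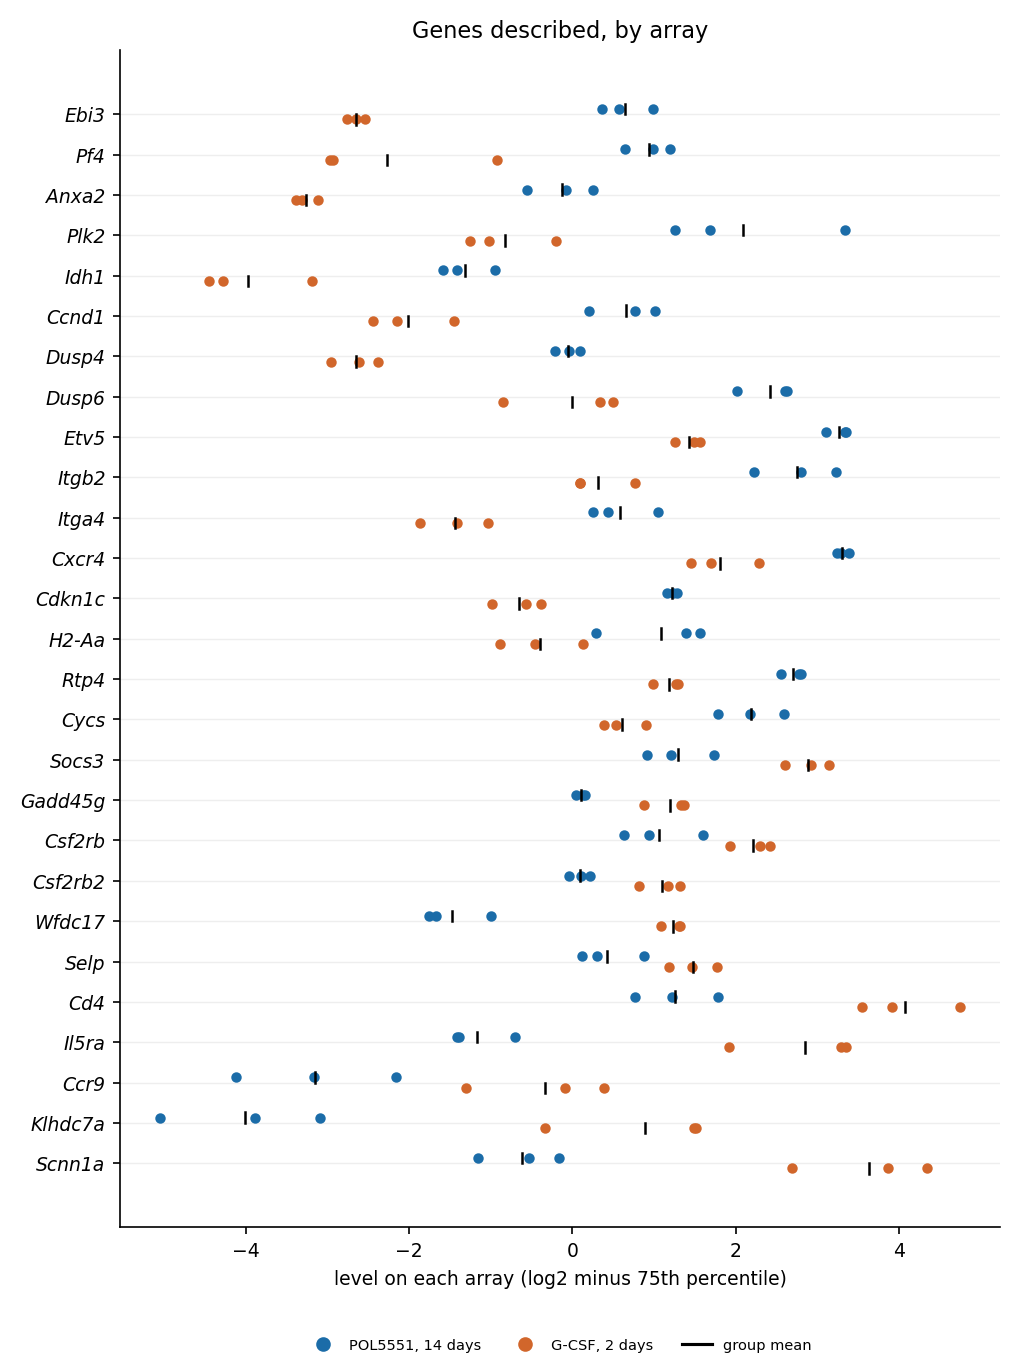
Level on each array (points, log2 minus the 75th percentile of the array) of genes described in the text, POL5551 in blue and 2-day G-CSF in orange, with group means as bars. The 3 Ebi3 values after POL5551 lie between 0.36 and 0.99 and those after G-CSF between -2.76 and -2.54, and Socs3 lies the other way. Cxcr4 is shown although it was not called, and levels of different genes are not to be compared.

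Genes that hold cells out of division were among the increases. On the list of quiescence genes and cell cycle inhibitors 9 of 30 (30%) were called higher against 5.36% of all genes, and 7 after quantile normalization, with a median of 0.77. Cdkn1c, the p57 inhibitor that marks quiescent stem cells, stood at 1.23, 1.28 and 1.16 after POL5551 and -0.57, -0.99 and -0.38 after G-CSF (1.87 ± 0.40, a fold of 3.66, adjusted p = 0.0144). Its sham mean was 1.14 and its 5-day mean -0.27, so the POL5551 group lay near sham. Tob1, an antiproliferative gene, was higher by 2.59 ± 0.50 (adjusted p = 0.0129) and was above background on 2 of 3 2-day arrays. Gfi1, a repressor that restrains stem cell division, was higher by 1.39 ± 0.47 (adjusted p = 0.0432), and missed the threshold after quantile normalization (adjusted p = 0.0691) and as the mean of its probes (0.77, adjusted p = 0.0997). The Cdkn1c probe lies at mm9 chr7:150644297-150644356. Without mouse 1 of the 2-day group Cdkn1c had an adjusted p of 0.0599, and without mouse 1 of the POL5551 group 0.0584.

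S phase and replication genes had 5 of 45 (11.1%) called higher and 3 (6.67%) lower, against 5.36% and 26.2% of all genes. Of the 45, 37 lay above 0, against 11706 of all 33158 genes, with a median of 0.81. For 26 of the 45 the groups did not overlap in the higher direction, against 6859 of 33158 genes (20.7%). G2/M and mitosis genes had 2 of 40 (5%) called higher and 3 (7.5%) lower, with a median of 0.41, and 1 each way after quantile normalization. Rrm1, a subunit of ribonucleotide reductase, was higher by 1.02 ± 0.30 (adjusted p = 0.0289), and Gins1, a replication fork protein, by 1.09 ± 0.33 (adjusted p = 0.0332). The 3 replication genes called lower included Rfc5 and Tk1, and the probes of both disagreed in sign, from -1.96 to 1.33 for Rfc5 and from -2.12 to 1.3 for Tk1. Mki67, the proliferation marker, stood at 0.90, 1.95 and 0.45 against 0.19, 0.95 and 0.38, with overlap (0.59, 95% interval -0.29 to 1.47, adjusted p = 0.24).

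Stem cell identity genes were called higher at about the share of all genes, 2 of 40 (5%) against 5.36%. Among genes with a symbol the share was 8.4%. The 2 were Tek and Fli1. The difference lay above 0 for 34 of 40, against 11706 of all 33158 genes, with a list median of 0.68. For 23 of 40 the groups did not overlap in the higher direction, against 6859 of 33158 genes (20.7%). Tek, the Tie2 receptor through which angiopoietin keeps stem cells quiescent, stood at -1.81, -2.70 and -2.59 against -4.77, -4.43 and -4.14 (2.08 ± 0.56, adjusted p = 0.023). Fli1, an ETS factor of stem cells and megakaryocytes, was higher by 1.27 ± 0.35 (adjusted p = 0.0255). Procr, the endothelial protein C receptor of the most primitive cells, stood at 1.39, 1.71 and 2.02 against -0.11, 1.03 and 0.74 and was not called (1.15, adjusted p = 0.0893). The intervals of Kit (-0.39 to 0.74), Slamf1 (-0.41 to 2.76), Ly6a (-0.60 to 2.14) and Cd48 (-1.55 to 0.19) all included 0. Slamf1 stood at -0.62, -1.59 and -0.64 against -2.35, -1.65 and -2.37, without overlap. A second Slamf1 probe differed by 1.54, and the mean of both gave 1.35 (adjusted p = 0.105). Flt3, a marker of multipotent progenitors outside the gate, differed by -0.84 ± 0.31 (adjusted p = 0.0591).

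Metabolic lists had between 16.7% and 25% of their members called higher, against 5.36% of all genes and 8.4% of genes with a symbol. In oxidative phosphorylation, the mitochondrial respiratory chain and ATP synthase, 9 of 40 (22.5%) were called higher and 1 lower. Of the 40, 39 lay above 0, against 11706 of all 33158 genes, and the median was 1.07. Cycs, cytochrome c, stood at 2.17, 2.59 and 1.79 against 0.39, 0.90 and 0.53 (1.58 ± 0.34, adjusted p = 0.0144), though the mean of its 2 probes gave 0.51 (adjusted p = 0.197). Ndufa4, a respiratory chain subunit, stood at 1.57, 1.72 and 1.08 against -0.56, -0.03 and -0.69 (1.89 ± 0.43, adjusted p = 0.0158). The member called lower, Atp5g1, had probes from -1.01 to 1.62. The summed signal of the 40 genes, in units of the 75th percentile, was 294, 358 and 418 on the POL5551 arrays and 151, 191 and 185 on the 2-day arrays.

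Glycolysis and hypoxia genes had 8 of 32 (25%) called higher, with a median of 0.85. Hif1a, the oxygen-regulated transcription factor, stood at -0.26, 0.56 and -0.64 against -1.58, -1.64 and -2.33 (1.74 ± 0.41, adjusted p = 0.017), its other probe gave -0.55, and the mean of both was 0.59 (adjusted p = 0.437). Cholesterol synthesis had 4 of 24 (16.7%) called higher and 1 lower. Stard4, a cholesterol carrier, was higher by 2.07 ± 0.42 (adjusted p = 0.0132) and Idi1, an enzyme of the pathway, by 1.81 ± 0.43 (adjusted p = 0.0179). MYC and ribosome biogenesis genes had 6 of 36 (16.7%) called higher, among them Polr1a, the large subunit of RNA polymerase I (1.62 ± 0.44, adjusted p = 0.0239). The other Polr1a probes gave 0.27 and -0.03, and the mean of all was 0.62 (adjusted p = 0.105). Cytosolic ribosomal proteins had 1 of 55 called lower and a median of 0.28, against 10 called higher and a median of 0.80 after quantile normalization.

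Interferon gamma and MHC genes had 8 of 32 (25%) called higher after POL5551, against 5.36% of all genes, with a median of 0.96. After quantile normalization 5 of the 32 were called higher, against 5.49% of all genes. Gbp3, an interferon-induced GTPase, stood at -1.96, -0.97 and -0.88 against -3.0, -2.60 and -3.18 (1.66 ± 0.39, adjusted p = 0.0176). Gbp4, of the same family, was well above background on all 3 POL5551 arrays and on no 2-day array, at least 2.6-fold higher. Gbp5, also of that family, went the other way and was not called, at 3.71, 3.75 and 4.57 against 5.20, 5.18 and 5.48 (-1.28). Its other probe was dimmer and differed by 0.48, and the mean of both gave -0.40 (adjusted p = 0.322). H2-Aa, an MHC class II chain, stood at 1.56, 0.29 and 1.39 against -0.89, -0.46 and 0.14 (1.48 ± 0.50, adjusted p = 0.0444, and 0.0593 after quantile normalization). Ifngr2, a chain of the interferon gamma receptor, was at least 4.51-fold higher by the same bound, and Ifngr1, its partner, was higher by 0.80 ± 0.28 (adjusted p = 0.0464, and 0.0918 after quantile normalization). In the type I interferon list 5 of 35 (14.3%) were called higher and 1 (2.86%) lower, against 5.36% and 26.2% of all genes. After quantile normalization the counts were 3 and 1. Rtp4, an interferon-stimulated gene, stood at 2.77, 2.80 and 2.55 against 1.29, 0.98 and 1.27 (1.53 ± 0.37, adjusted p = 0.0183).

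More markers of T, NK, B and mast cells were called lower than higher after POL5551. The cells had been sorted as lineage-negative. In these bulk samples fewer cells of a type and less RNA per cell cannot be told apart. T and NK cell markers had 9 of 23 called lower (39.1% against 26.2% of all genes) and a median of -1.29, or -0.79 after quantile normalization. Their summed signal was 29.4, 41.5 and 29.1 times the 75th percentile on the POL5551 arrays and 129, 72 and 106 on the 2-day arrays. Cd4 stood at 1.22, 1.79 and 0.77 against 4.74, 3.55 and 3.91 (-2.81 ± 0.56, adjusted p = 0.013; -1.83 as the mean of its probes), and Eomes, a factor of NK and memory T cells, differed by -3.79 ± 0.76 (adjusted p = 0.0137). Neither gene's groups overlapped, and mouse 2 was the lowest of the 2-day group in both, as it was in the off-tissue level; the part of that level was not tested.

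B lymphoid markers had 9 of 21 (42.9%) called lower and 1 higher, and mast cell and basophil markers 7 of 16 (43.8%) lower, against 26.2% of all genes. After quantile normalization 4 of each list were called lower, against 12.3% of all genes. Lymphoid priming genes had 4 of 19 (21.1%) called lower, 2 after quantile normalization, among them Dntt, the terminal transferase of early lymphoid cells, at -1.10, -0.45 and -0.97 against 1.29, 0.86 and 1.05 (-1.91 ± 0.44, adjusted p = 0.0168). Il5ra, the interleukin-5 receptor chain of eosinophils and B-1 cells, stood at -1.39, -1.41 and -0.70 against 3.35, 1.92 and 3.29 (-4.02 ± 0.62, adjusted p = 0.0107). Without mouse 1 of the 2-day group its adjusted p was 0.0564. Ermap, an erythroid membrane protein, differed by -2.31 ± 0.49 (adjusted p = 0.0139). The erythroid list had 6 of 24 (25%) called lower and 1 (4.17%) higher, near the shares of all genes. Among genes with a symbol the shares were 18.9% lower and 8.4% higher. The medians of the erythroid and cytokine receptor lists, -0.52 and -0.51, moved to 0.00 and -0.06 after quantile normalization, so neither list has a settled direction.

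Megakaryocyte genes had 4 of 23 (17.4%) called higher and 3 (13%) lower, against 5.36% and 26.2% of all genes. Besides Pf4, the increases included F2r, the thrombin receptor, at -0.02, 0.33 and -0.24 against -1.71, -1.25 and -2.15 (1.73 ± 0.35, adjusted p = 0.0132), and the decreases Tubb1, the platelet tubulin (-1.61 ± 0.46, adjusted p = 0.0271, and 0.0801 after quantile normalization). Primary granule genes had 1 of 18 (5.56%) called higher and 3 (16.7%) lower, and mature neutrophil genes 2 of 23 (8.7%) and 3 (13%). Quantile normalization left 1 lower call among the mature neutrophil genes and the primary granule calls were lost.

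Stromal and osteoblast markers varied within each group. Their summed signal was 79.8, 32.5 and 66.7 times the 75th percentile on the POL5551 arrays and 36.1, 23.4 and 69.9 on the 2-day arrays, so mouse 3 of the 2-day group lay among the POL5551 mice. Of 29 tested, 3 (10.3%) were called higher and 3 (10.3%) lower, against 5.36% and 26.2% of all genes. Ebf3, a factor of CXCL12-producing reticular cells, stood at -0.83, -2.85 and -0.76 against -5.93, -7.05 and -4.49 (4.34 ± 0.84, adjusted p = 0.0129). It was above background on all 3 POL5551 arrays and on 1 2-day array, so the size of this difference is not reliable. Its other probe differed by 1.70, and the mean of both gave 3.02 (adjusted p = 0.041). Cxcl12 and Hp, given above, and Ebf3 were lowest in mouse 2 within the POL5551 group, where the stromal sum was also lowest. These genes are members of the stromal list and enter its sum, so this likeness is partly built in. The part of stromal cells in the differences of these genes was not tested.

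**Figure D4:**
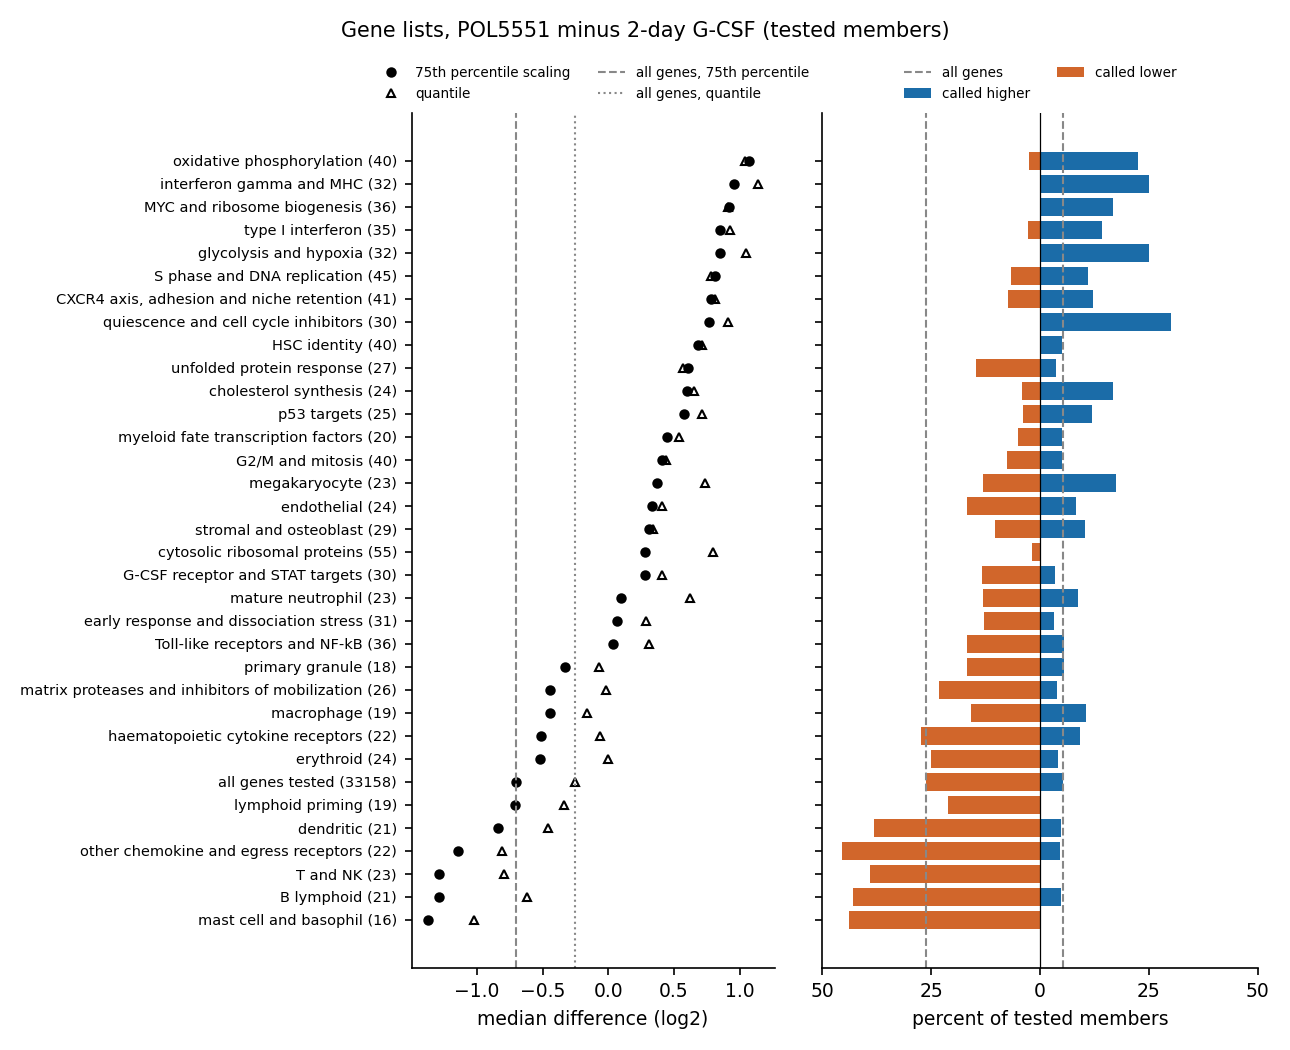
For each gene list, the median difference (log2, left) under the 75th percentile scaling (circles) and quantile normalization (triangles), and the percent of tested members called higher or lower (right), with dashed and dotted lines for all 33158 genes. The quiescence list has 30% of its 30 members called higher and the list of other chemokine and egress receptors 45.5% of its 22 called lower, against 5.36% and 26.2% of all genes.

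The largest decreases after POL5551 included genes known mainly from other tissues. Klhdc7a, a kelch-domain gene, stood at -5.05, -3.88 and -3.09 against 1.49, -0.34 and 1.51 (-4.89 ± 0.84, adjusted p = 0.0123). Hgd, a liver enzyme of tyrosine breakdown, stood at 0.10, 1.28 and 1.06 against 5.41, 4.70 and 5.47 (-4.38 ± 0.75, adjusted p = 0.0123). Scnn1a, the epithelial sodium channel, stood at -1.15, -0.16 and -0.54 against 4.34, 2.69 and 3.87 (-4.25 ± 0.72, adjusted p = 0.0123). The others of the 10 were Snhg7os, a transcript opposite Snhg7 (-4.72), Necab1, a neuronal calcium-binding gene (-4.37), Rgs22 (-4.29), Ece1 (-4.28), Adam1b, a sperm gene (-4.21), Zcchc24 (-4.20) and Defb39, a beta-defensin (-4.16). Mouse 1 was the lowest POL5551 mouse in 10 of these 10 genes and mouse 2 the lowest 2-day mouse in 9, and both are also the lowest of their group in the off-tissue level.

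Snhg7os and Adam1b were called with each of the 12 arrays left out in turn. The 3 Ece1 probes ranged from -4.28 to 1.28, their mean was -0.93 (adjusted p = 0.114), and the called one lies at mm9 chr4:137472100-137472159. Probes of 1 gene often disagreed: of 10347 genes with several tested probes 4167 (40.3%) had differences of both signs, and of 57 such genes that were named and called 21 (36.8%). As means of their probes Scnn1a gave -2.71 and Necab1 -2.89. The probes of Klhdc7a, Hgd and Scnn1a lie at mm9 chr4:139518090-139518149, chr16:37621972-37622031 and chr6:125293939-125293998.

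Some genes had a probe measured in 1 group and at background in the other, with the bound used for Cx3cr1. Olig2, a neural transcription factor, was at least 13.2-fold lower after POL5551. Probes of Cnn3, a calponin, and Nme5 gave bounds of 42.2 and 15.3, but those genes were not at background. The other Cnn3 probe was well above background on all 6 arrays and differed by -1.67, and the other Nme5 probe was so on 4 of 6 and differed by -1.56. The lower bounds for Cfap45, Mrgpra9 and Tcl1b1 were 13.3, 13 and 11.7. In the other direction the bounds were smaller. Vcpkmt, a methyltransferase, was at least 7.82-fold higher, Raver2 at least 6.47-fold, Ado, which oxidizes cysteamine, at least 5.99-fold, Hvcn1, the voltage-gated proton channel, at least 5.87-fold, Dld, a subunit of pyruvate dehydrogenase, at least 5.83-fold, and Strn at least 5.52-fold.

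Other genes were called under the 75th percentile scaling and not after quantile normalization, though some kept their call under other scalings. The higher ones were Wdr76 (2.21), Tnk2 (2.17), Il12rb1 (given above), Tmem273 (2.06), Unc5a (2.03) and Sirpa, the receptor of CD47 (1.98), and their adjusted p after quantile normalization ran from 0.0556 to 0.0789. The means of both probes gave 0.87 for Wdr76 (adjusted p = 0.29) and 0.73 for Sirpa (adjusted p = 0.132). The lower ones were Ugt3a1 (-2.87), Pknox2 (-2.85), Fcamr (-2.85), Prss3 (-2.85), Ccr9 (given above) and Cfap97d1 (-2.81), with 0.0556 to 0.0863.

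Against sham, whose arrays both comparisons share, limma called 58 genes higher (0.175%) and 827 lower (2.49%) after POL5551, and 11 higher (0.0332%) and 1 lower (0.00302%) after 2 days of G-CSF. Sham mouse 1 had the lowest array weight in limma (0.141). Its rank correlation with the other sham arrays was 0.7875 and 0.783, against 0.936 between those arrays. The sham counts and means here include it, and small counts against sham do not show that little changed. Cd53, a tetraspanin of leukocytes, and Borcs5, a subunit of a complex that positions lysosomes, were among the fixed genes. Cd53 stood at 0.00, -0.71 and -0.93 after POL5551 and -1.15, -0.96 and -0.35 after 2 days of G-CSF (0.27, 95% interval -0.68 to 1.23, adjusted p = 0.609), with a sham mean of -5.65 and a 5-day mean of 1.39. Borcs5 stood at -2.0, -2.85 and -2.32 and -2.63, -1.09 and -2.07 (-0.45, 95% interval -1.44 to 0.53, adjusted p = 0.41), with a sham mean of -6.47 and a 5-day mean of -2.32. Both group means lay above the sham mean for these genes, and the values of the 2 groups overlapped.

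Against 5 days of G-CSF, which shares the POL5551 arrays, limma called 20 genes lower (0.0603%), and each of the 20 was also lower than after 2 days. Muc1, a membrane mucin named here after its values were seen, stood at -2.87, -2.33 and -2.33 after POL5551, at 0.41, -0.67 and -0.38 after 2 days and at 0.40, 0.60 and -0.23 after 5 days. Csf2rb2 and Wfdc17 were also among the 20, with differences of -2.18 and -3.35 from 5 days.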

How the data were processed

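RNA from sorted cells was measured on single-colour (Cy5) Agilent arrays. The deposited scanner files hold the processed signal as an intensity per spot, which per the file headers was background-subtracted and detrended by Feature Extraction and not normalized between arrays. The authors' deposited value table, of unstated method, was used as an alternative. Each intensity was taken as log2 minus the 75th percentile of the array, over non-control probes. Outlier spots were dropped and spots of a probe averaged. Probes well above background on at least 3 of 12 arrays were tested, and a gene was represented by its brightest tested probe. Group means were fitted over 12 arrays, which share 1 estimate of spread, with limma 3.58.1 in R 4.3.3 and Benjamini-Hochberg adjustment over 33158 genes at 0.05. The fit was tested on simulated data. Probe positions are those of the array design (mm9). Named genes were, among genes with a symbol that were well above background on all 6 arrays and whose groups did not overlap, the 10 largest changes each way called under both scalings and the 6 each way called under the 75th percentile and not after quantile normalization. To these were added up to 6 each way measured in 1 group, a fixed set, and from each list up to 2 called members each way by p, or else the 1 with the smallest unadjusted p if under 0.05. Members and lists were chosen with earlier results of these data known. Alternatives were other scalings, backgrounds, filters, probe rules, sample sets, array weights, slide, the off-tissue covariate and leaving out each array. Not every gene that the rule named is described here. The number of arrays limits the precision.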

Additional observations from a re-analysis of the deposited data

How the results depend on the processing

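The sign of most named results held under the scalings, but counts did not. The total of 10459 calls became 5913 with quantile normalization, 6042 with the authors' values, 6169 with quantile normalization and a filter on all 6 arrays (chosen after seeing the data), 17098 with the 6 arrays alone, 17232 with 9 arrays, 19472 with array weights and 0 with the off-tissue covariate (2948 at an unadjusted p under 0.05 in limma). Higher calls became 4055 with median scaling, 4538 with 6 arrays, 4818 with 9, 5599 with weights and 0 with the covariate. Lower calls became 4091 with quantile normalization, 4507 with median scaling, 4711 with normexp, 4175 with the authors' values, 4116 with quantile normalization and the filter, 13873 with weights and 0 with the covariate. Leaving out 1 array gave 105 to 17603 calls, 7 to 5145 higher and 98 to 12458 lower. The lowest came without mouse 1 of the 2-day group and the highest without mouse 1 of the sham group.

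Some named genes changed sign. With the mean of probes, Atp5g1 became 0.46, Ern1 -0.33 and Srgn -0.30. Borcs5 became 0.04 with quantile normalization, with or without the filter, 0.02 with median scaling, 0.05 with normexp and with the authors' values, and 0.00 with the covariate. Csf3r became 0.21 with quantile normalization, with or without the filter, 0.18 with normexp, 0.19 with the authors' values and 0.57 with the covariate. Pim1 became 0.01 with median scaling, and leaving out 1 array gave Cd53 0.00 (without mouse 1 of the POL5551 group) to 0.51 (without mouse 3 of the 2-day group). With the covariate the values were Ccr9 0.15, Cd34 -0.93, Cd48 0.19, Cd53 -1.06, Cfap97d1 0.35, Cxcr4 -0.23, Fcamr 0.07, Gbp5 0.28, H2-Aa -0.02, Il12rb1 -0.95, Ltb -1.04, Ly6a -1.78, Mad2l1 -0.14, Mecom 0.48, Polr1b 0.35, Procr -0.29, Prss3 0.97, Sesn2 0.23, Sirpa -0.17, Slamf1 -1.50, Smc2 -0.07, Tnk2 -0.31, Ugt3a1 0.32, Unc5a -0.40 and Wdr76 -0.58. Among the genes looked up, Ccnd2 became -1.93, Ccnd3 -1.17, Egr1 -0.37 and Il12b 0.32 with the covariate. Il27 became 0.06, Spred1 -0.72, Spred2 -0.39 and Spry1 -0.08. Some increases kept their sign but shrank, such as Ccnd1 to 0.03, Afp to 0.12, Tek to 0.27, Ifngr2 to 0.28 and Vcpkmt to 0.44. Others did not shrink, such as Hvcn1 at 5.11, Dusp6 at 2.60 and Socs3 at -2.70. The cause was not tested.

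Replicate numbers showed no pairing of the samples, with same-numbered deviations correlated at -0.098, 0.077 and 0.058. The authors' values number the POL5551 mice, and 5-day mice 2 and 3, otherwise than the scanner data do. The check therefore cannot exclude a pairing. Mouse numbers here follow the scanner data, and the groups are not affected. With the number as a replicate block 8596 genes were called, 1515 higher and 7081 lower. Dim probes limit the comparison, since values near background have no reliable fold.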
